A study of Mus musculus with 7 samples.

Results

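In 4555 of 264791 sequenced junctions (1.72%), the broken coding end of JH4, a joining segment of the immunoglobulin heavy chain locus (Igh), was joined to another JH segment in the orientation opposite to that of ordinary V(D)J joins. These were all lines of chromosome 12 with strand -1 and a junction in one of 2 windows. The near site runs from 114 bases inside to 6 bases past the coding end of JH3 and held 2221 lines. The far site runs from 52 bases inside the coding end of JH2 to 3 bases past that of JH1 and held 2334. One line is 1 sequenced read, and positions are those of mm9, per the submitters' processing notes.

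HTGTS, high-throughput genome-wide translocation sequencing, primes on a bait, which was the coding end of JH4, and sequences whatever DNA has been joined to it. The DNA was from pro-B cells of the bone marrow (gate B220+CD43highIgM-), and all mice were 129SVE and 4 to 6 weeks old. The groups were WT (n = 3 libraries) and VH81X-CBEscr/scr (n = 4), in which the CTCF-binding element named after VH81X carries the variant that the labels call scr on both alleles. The series was made to compare the use of VH segments between these genotypes, and the joins within the JH region come from the same libraries. Nothing in the labels states whether each library is its own mouse, and p-values therefore reflect the spread among libraries, which may be technical. No library was left out, and the sort could not be checked against marker genes, since only DNA junctions were read.

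Igh is assembled in pro-B cells by the RAG recombinase, which cuts beside recombination signal sequences, each a heptamer, a spacer and a nonamer. A short-spacer signal pairs with a long-spacer one. JH and VH segments carry long-spacer signals and D segments carry a short-spacer signal on each side, and D joins JH before VH joins DJ. Coding ends are opened from a hairpin, trimmed, and extended with untemplated bases before they are joined. In the usual deletional join of D to JH, the JH segment keeps the D on its 5′ side in the same transcriptional orientation.

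The sequences below show the JH ends and the D segments on which the results turn, and then whole junctions. Igh lies on the minus strand, and the JH and D sequences are written 5′ to 3′ on that strand, as read from matched bases in the deposited reads. In the JH segments the capitals mark the 7 bases of the heptamer, and the first 30 coding bases follow in lower case. The fewest lines behind any base were 5 for JH4, 31 for JH3, 24 for JH2 and 7 for JH1.
JH4 (chr12:114671098-114671134): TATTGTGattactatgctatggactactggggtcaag
JH3 (chr12:114671664-114671700): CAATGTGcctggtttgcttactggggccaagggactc
JH2 (chr12:114672047-114672083): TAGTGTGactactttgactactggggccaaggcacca
JH1 (chr12:114672365-114672401): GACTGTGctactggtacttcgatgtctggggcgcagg

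The reverse complements of the 4 heptamers match the consensus CACAGTG at 5 (JH4), 6 (JH3), 5 (JH2) and 6 (JH1) of 7 bases. The outermost coding base was at position 114671127 for JH4, 114671693 for JH3, 114672076 for JH2 and 114672394 for JH1. These ends lie 566, 383 and 318 bases apart, against 565, 383 and 318 between the same genes in a RefSeq table of another assembly, which was used for this spacing alone. The near site is thus the coding end of JH3, and the far site holds 2 separate ends, JH2 and JH1.

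For the D segments, read the same way, the capitals mark the coding bases, to which the coordinates refer, and the lower-case bases on each side are the flanking heptamers. D segments without a settled name are called by the lowest coordinate of their coding bases in the files' reference.
DFL16.1 (chr12:114734544-114734566): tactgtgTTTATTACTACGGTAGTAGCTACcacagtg
D_114705399 (chr12:114705399-114705415): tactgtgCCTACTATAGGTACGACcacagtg
D_114710077 (chr12:114710077-114710093): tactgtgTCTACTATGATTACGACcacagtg
DQ52 (chr12:114673089-114673099): cacagtgCTAACTGGGACcacggtg

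D_114700407 has the same coding sequence as D_114710077, so matches to the pair cannot be told apart. In all, 12 D segments with 11 distinct coding sequences were read.

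The following junctions run from JH4 (20 bases, antisense) through the inserted bases to the prey (20 bases). The capitals mark the longest stretch shared with a D segment. Each is the junction of its kind with the most lines among those with a D run of at least 12 bases, and lines numbered 10, 14, 7, 5 and 22 in the order shown.
JH4 to JH3, WT replicate 2: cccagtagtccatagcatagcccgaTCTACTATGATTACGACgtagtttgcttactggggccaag
JH4 to JH2, WT replicate 2: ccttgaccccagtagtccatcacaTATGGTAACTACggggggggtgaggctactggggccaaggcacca
JH4 to JH1, VH81X-CBEscr/scr replicate 3: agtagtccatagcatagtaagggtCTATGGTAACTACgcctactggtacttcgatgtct
JH4 to JH2 with an antisense D, VH81X-CBEscr/scr replicate 1: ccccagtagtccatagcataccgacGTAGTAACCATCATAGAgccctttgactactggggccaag
JH4 to a VH segment, WT replicate 2: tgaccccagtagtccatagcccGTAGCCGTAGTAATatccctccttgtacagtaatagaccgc

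In the JH3 read the capitals hold all 17 coding bases of the identical pair. Those of the JH2 read match D_114690286, D_114695747 and D_114714725 alike, and those of the JH1 read match D_114690286 and D_114714725. In the first 3 reads the D is written in its own coding sense, its 5′ end toward JH4 and its 3′ end toward the other JH. In the fourth and in the VH read the D is written as its reverse complement.

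The joins occurred in every library. WT replicates 1 to 3 held 678, 504 and 670 of them, or 1.67%, 1.49% and 1.43% of all lines. VH81X-CBEscr/scr replicates 1 to 4 held 788, 515, 699 and 701, or 2.06%, 1.61%, 1.99% and 1.83%. The mean was 1.53% ± 0.125 (SD, n = 3) in WT and 1.87% ± 0.201 (SD, n = 4) in the mutant, and the groups overlapped in range. No single junction dominated: the most repeated junction took 9 to 15 lines, or 1.33% to 2.78% of a library's joins of this kind. Counting junctions of one position, insert and bait end once left 2124 distinct junctions, of which 1 occurred in more than 1 library. Of the 1788 with at least 8 inserted bases, 0 did.

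The windows took in nearly all strand -1 lines of the JH region. Of 4566 such lines from 627 bases inside the JH4 coding end to 596 bases past the JH1 coding end, 4555 lay in the windows, and 0 lay within 100 bases outside either window. The lowest and highest junctions lay on the window borders themselves, so the empty flanks cannot be read as a separate result. The opposite strand had only 35 lines in the near window and 30 in the far window.

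At the near site, JH3 lines numbered 321, 295 and 312 in WT and 401, 269, 270 and 353 in the mutant. Their share of all lines was 0.776% ± 0.105 (SD, n = 3) in WT and 0.896% ± 0.120 (SD, n = 4) in the mutant. The log2 difference of mutant over WT was 0.21 (two-sided exact permutation test over all 35 splits, p = 0.257, adjusted p = 0.364). At the far site, lines numbered 357, 209 and 358 in WT and 387, 246, 429 and 348 in the mutant. The share was 0.754% ± 0.130 (SD, n = 3) against 0.979% ± 0.191 (SD, n = 4), a log2 difference of 0.37 (exact permutation p = 0.114, adjusted p = 0.216). The smallest p of this design is 0.0286, and p-values here and below are adjusted by Benjamini-Hochberg over 34 tests, with 0.05 as the threshold. Neither difference passed it. With all lines and medians, no difference below would pass without the insert length and D match tests against DJ joins in the adjustment. As a share of distinct junctions, the far-site log2 difference was 0.32 (exact permutation p = 0.0286, the smallest possible, adjusted p = 0.0559). The near-site difference was then 0.11 (exact permutation p = 0.543, adjusted p = 0.595). Without duplicate-marked lines the far-site difference was 0.24 (exact permutation p = 0.143, adjusted p = 0.211). The libraries came from 4 sequencing runs, and 0 runs held both genotypes, so run and genotype cannot be told apart.

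Within the far site, JH2 was the main partner. JH2 took 283, 185 and 293 lines in WT and 330, 203, 353 and 303 in the mutant. JH1, the segment farthest from the bait, took 74, 24 and 65 lines in WT and 57, 43, 76 and 45 in the mutant. By genotype, JH2 had a log2 difference of 0.39 (exact permutation p = 0.114, adjusted p = 0.216) and JH1 of 0.30 (exact permutation p = 0.514, adjusted p = 0.673). Over all 7 libraries JH3 took 0.845% ± 0.122 (SD) of lines, JH2 0.738% ± 0.159 and JH1 0.144% ± 0.0464. The difference between JH3 and JH2 did not pass the threshold: its mean within libraries was 0.107 percentage points (two-sided exact sign-flip test over 7 libraries, p = 0.172, adjusted p = 0.278). Without duplicate-marked lines it was 0.127 points (exact sign-flip p = 0.0469, adjusted p = 0.0885). Over distinct junctions it was 0.143 points (exact sign-flip p = 0.0313, adjusted p = 0.0559). JH2 exceeded JH1 in 7 of 7 libraries, by 0.594 percentage points (exact sign-flip p = 0.0156, the smallest possible, adjusted p = 0.0409).

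**Figure D1:**
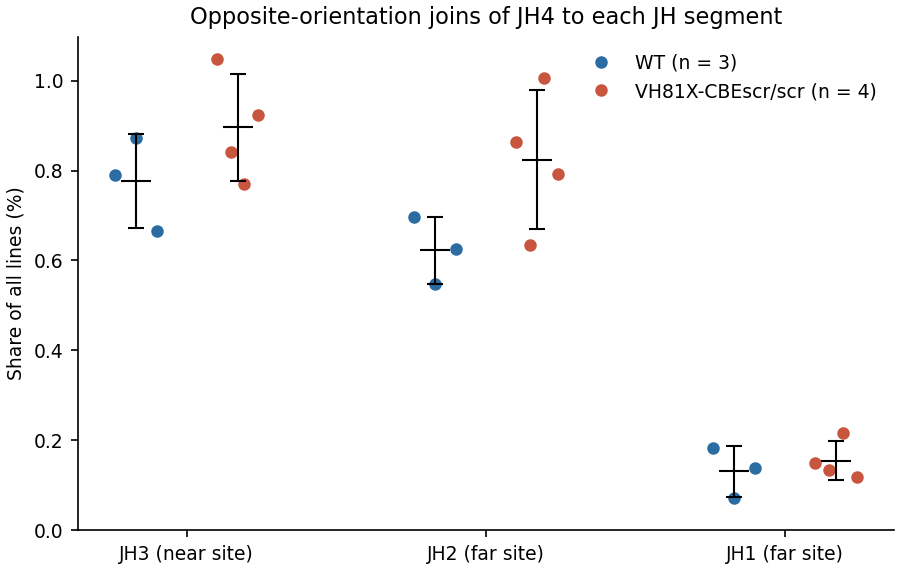
Share of all lines (%, vertical axis) taken by joins of JH4 to JH3, JH2 and JH1 in the opposite orientation; each point is a library, and the black lines are the mean and SD of each genotype. JH1 lies between 0.0710% and 0.217%, below every JH2 value (0.548% to 1.01%), while JH3 and JH2 overlap.

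The junctions lay close to the coding ends and differed in pattern between the 3 partners. At JH3 the median junction was 3 bases inside the coding end in every library. Of 2221 JH3 lines, 76.7% fell from 0 to 10 bases inside the end, and 17.4% reached past it into the heptamer. The most used JH3 positions by distinct junctions were 114671690 (3 bases inside, 376 lines, 168 distinct), 114671694 (1 base past the end, 329 lines, 156 distinct) and 114671693 (the outermost coding base, 262 lines, 128 distinct). At JH2 the library medians were 5 to 6 bases inside, 84.6% of 1950 lines fell from 0 to 10 bases inside, and 2.46% reached past the end. The most used JH2 positions were 114672076 (the outermost coding base, 325 lines, 150 distinct), 114672068 (8 bases inside, 242 lines, 116 distinct) and 114672066 (10 bases inside, 175 lines, 86 distinct). Each of these 6 positions was used in all 7 libraries. At JH1 the library medians were 2 to 3 bases inside, 85.2% of 384 lines fell from 0 to 10 bases inside, and 11.7% reached past the end. An inserted base that equals the next reference base is counted as prey, so a junction 1 base past an end may hold an added base. Few lines were trimmed by more than 20 bases, 24 at JH3, 24 at JH2 and 1 at JH1. The first 20 prey bases were free of mismatches in 95.8% of lines at each site.

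**Figure D2:**
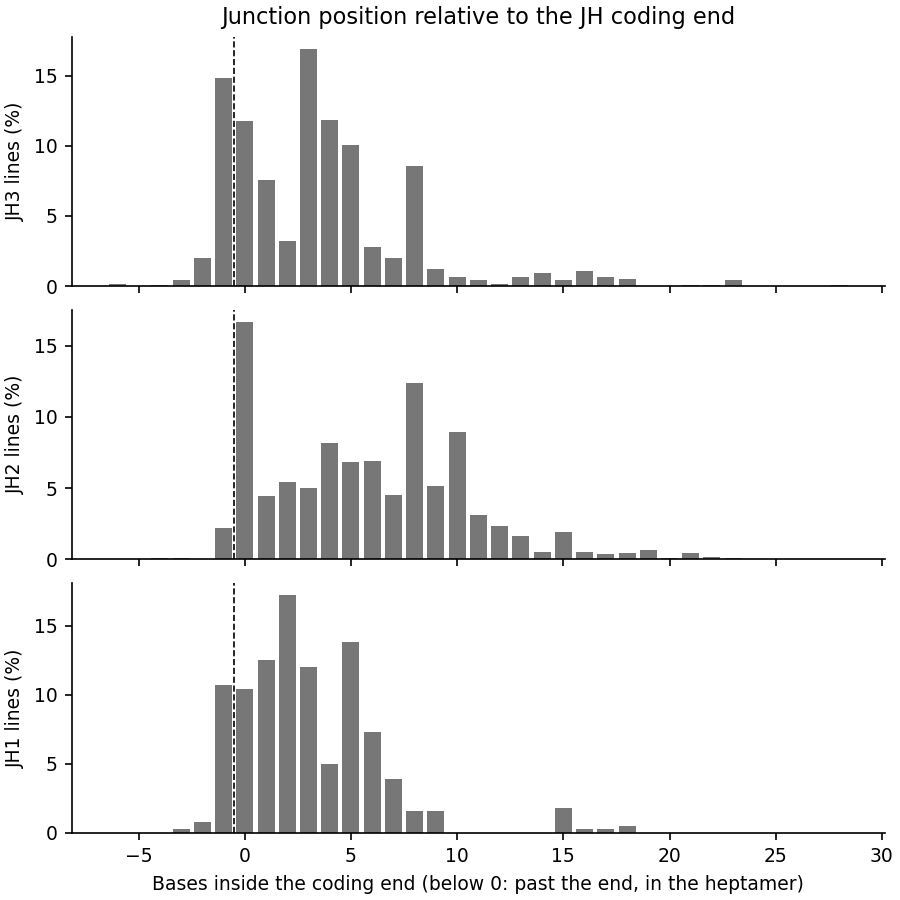
Share of the lines of each JH segment (%, vertical axis) by distance of the junction from the outermost coding base (bases, horizontal axis; positive values lie inside the coding sequence, and the dashed line marks the coding end), all 7 libraries pooled. JH3 has peaks 3 bases inside and 1 base past the end, JH2 at the end and 8 bases inside, and JH1 around 2 bases inside.

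The inserted bases between JH4 and the other JH were close in length to those of V(D)J joins and far longer than those of DJ joins. Median lengths at the near site were 16, 16 and 16 bases in WT and 15, 15, 15 and 16 in the mutant. At the far site they were 14, 17 and 16 in WT and 15, 15, 15 and 15 in the mutant. DJ joins, the 157594 lines in the usual orientation within 10 bases of a D segment, had a median of 3 in each of the 7 libraries. The 95203 lines joined in the usual orientation to the VH region, called V(D)J joins, had a median of 17 in each of the 7. The authors' files hold no insert longer than 30 bases, so all medians are those of the lines up to that length. Near-site medians were longer than DJ medians by a mean of 12.6 bases and far-site medians by 12.3 (both longer in 7 of 7 libraries, exact sign-flip p = 0.0156, adjusted p = 0.0409). The prey of a DJ line is the D itself, which therefore lies outside the insert. Shorter inserts in DJ joins thus follow from how those lines are defined. Against V(D)J inserts the library medians of the near site differed by a mean of -1.43 bases (exact p = 0.0156, adjusted p = 0.0409), and those of the far site by -1.71 bases (exact p = 0.0313, adjusted p = 0.0664). The near-site call is lost where only lines not marked as duplicates are counted (-1.43, adjusted p = 0.0625 by the same exact test) or distinct junctions (-1.21, adjusted p = 0.0559). The far-site difference passes with either (-1.5 and -1.79, exact adjusted p = 0.0379 for each). The sites themselves differed by 0.286 bases (exact p = 0.75, adjusted p = 0.823).

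**Figure D3:**
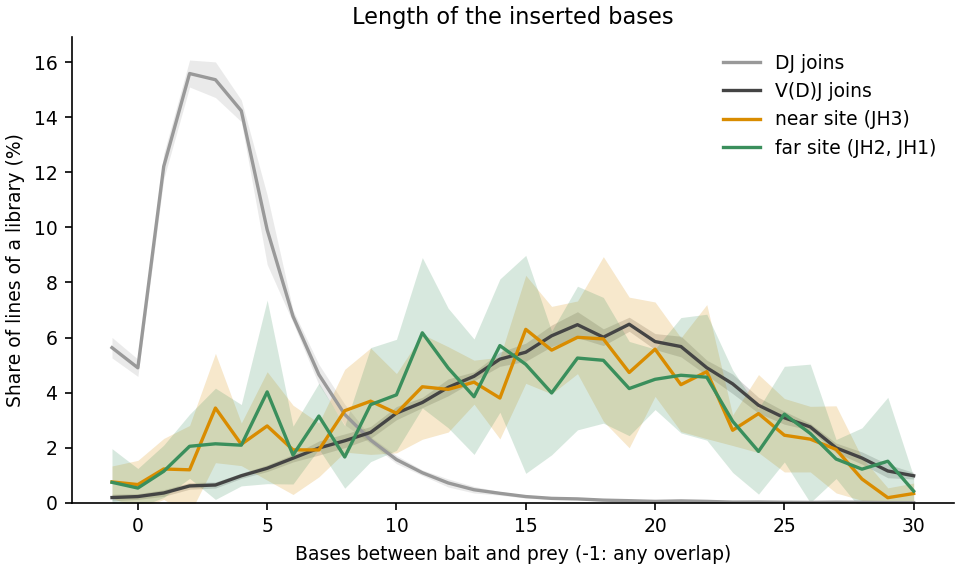
Share of the lines of a library (%, vertical axis) by number of bases between bait and prey (horizontal axis, with every overlap drawn at the left end); lines are means over 7 libraries and bands are 1 SD. DJ joins peak at 2 to 4 bases, while both JH sites spread over the range of V(D)J joins.

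Most of the inserts held part of a D segment. A D match was a run of at least 8 bases shared exactly with a D coding sequence on either strand. At JH3 it was found in 62.3%, 64.1% and 66.3% of lines in WT and in 55.9%, 62.5%, 57.0% and 60.3% in the mutant, a mean of 61.2% ± 3.74 (SD, n = 7). At the far site it was found in 56.3%, 55.5% and 53.6% in WT and in 59.2%, 59.8%, 62.0% and 54.0% in the mutant, a mean of 57.2% ± 3.16 (SD, n = 7). V(D)J inserts held one in 67.4% ± 0.568 of lines and DJ inserts in 0.679% ± 0.157 (SD, n = 7 each). The near site exceeded DJ joins by 60.5 percentage points and the far site by 56.5, and they lay below V(D)J joins by -6.25 and -10.2 points. Each of these 4 differences had one sign in 7 of 7 libraries (exact sign-flip p = 0.0156, adjusted p = 0.0409). The differences from DJ joins follow from how DJ lines are defined, since their D is the prey and lies outside the insert. The calls against V(D)J joins were lost with D runs of at least 10 bases (exact adjusted p = 0.133 near and 0.0708 far), and the near-site call also over distinct junctions (exact adjusted p = 0.0559). The near and far sites differed by 4.00 points (exact p = 0.141, adjusted p = 0.239). Among inserts of 8 or more bases, the only ones that can hold a match, the share was 73.0% ± 4.66 at the near site, 69.5% ± 3.17 at the far site and 73.2% ± 0.479 in V(D)J joins (SD, n = 7 each).

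JH1 alone varied more. Its inserts held a D match in 33.8%, 33.3% and 47.7% of lines in WT and in 54.4%, 62.8%, 71.1% and 80.0% in the mutant, from 24 to 76 lines a library. The genotype ranges did not overlap, but the difference of 28.8 percentage points did not pass the test (exact permutation p = 0.0571, adjusted p = 0.129 over the 3 JH segments, chosen after its values were seen). Over distinct junctions, 9 to 32 a library, it was 19.8 points (exact permutation p = 0.114, adjusted p = 0.343), and the ranges overlapped.

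The D segments at both JH sites lay in the orientation opposite to that in V(D)J reads. Here sense means that the D reads with its 5′ end toward JH4. At the near site 1350 D matches were sense and 5 antisense. At the far site 1323 were sense and 16 antisense, of which JH2 gave 1115 and 12 and JH1 gave 208 and 4. Over distinct junctions the counts were 655 and 5 at the near site and 613 and 7 at the far site. V(D)J joins gave 173 sense and 63935 antisense, besides 117 matched on both strands. The sense share was 99.6% ± 0.433 at the near site, 98.98% ± 1.01 at the far site and 0.266% ± 0.0697 in V(D)J joins (SD, n = 7 each). The lowest library value was 98.8% at the near site and 97.8% at the far site. These shares differed from V(D)J joins by 99.4 and 98.7 percentage points (exact sign-flip p = 0.0156, adjusted p = 0.0409), and from each other by 0.638 points (exact p = 0.234, adjusted p = 0.362). Read from the other JH segment, a sense D sits upstream of JH3, JH2 or JH1 in the same transcriptional orientation, as in a usual DJ join, with JH4 joined at the D's 5′ side.

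**Figure D4:**
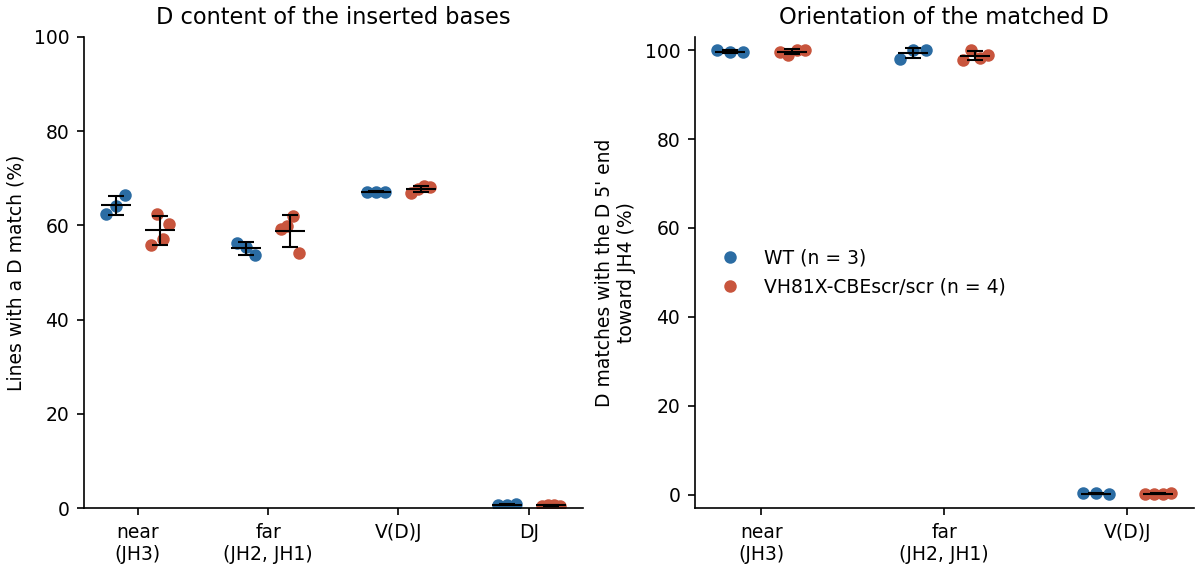
Left, share of lines whose inserted bases match a D segment (%); right, share of those D matches that read with the D 5′ end toward JH4 (%); each point is a library, and black lines are the mean and SD of each genotype (3 WT, 4 VH81X-CBEscr/scr). Both JH sites lie near V(D)J joins on the left and at the opposite extreme on the right.

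The sense D joins had bases added on both sides of the D. The D run was 12 bases long in the median of all near-site lines, with 3 bases between JH4 and the D and 3 between the D and JH3. JH2 joins had medians of 12, 3 and 3 bases, and JH1 joins of 13, 3 and 2. Lines with no base between JH4 and the D made up 9.93% at JH3, 13.1% at JH2 and 14.9% at JH1. Lines with no base between the D and the other JH made up 14.9%, 12.5% and 12.02%. The D's 5′ end, next to JH4, lacked a median of 3 bases in JH3 joins, 4 in JH2 joins and 3 in JH1 joins. Its 3′ end lacked 1, 1 and 2. A whole D coding sequence was present in 145 near-site lines (10.7% of those with a sense D) and in 112 far-site lines (8.47%). These pooled values are descriptions, and bases that match by chance count as D.

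Some D segments took other shares of the D matches than in V(D)J joins. DFL16.1, the D farthest from JH, was 9.16% ± 3.77 of D matches at the near site and 11.6% ± 4.19 at the far site, against 20.8% ± 1.43 in V(D)J joins (SD, n = 7 each). By library its near-site share was 11.0%, 8.47% and 4.83% in WT and 4.91%, 7.74%, 14.9% and 12.2% in the mutant, and its far-site share was 5.47%, 14.7% and 15.1% in WT and 14.8%, 6.12%, 13.9% and 11.2% in the mutant. It was lower than in V(D)J joins in 7 of 7 libraries at each site, by -11.6 and -9.18 percentage points (exact sign-flip p = 0.0156, adjusted p = 0.0409 for each). By junction position, DFL16.1 took 22.8% ± 1.17 of DJ lines (SD, n = 7). Inserts of all kinds of join are limited to 30 bases, and DFL16.1 has 23 coding bases against 17 or fewer for the others. Whether this bears on its share was not tested. D_114719358, of 17 coding bases, took 3.17% of pooled near-site and 2.32% of pooled far-site D matches, against 8.37% in V(D)J joins. For D_114695747, of the same length, these pooled shares were 7.38%, 11.4% and 6.59%. The share of a single D counts only runs that match no other D. Runs that match D_114690286, D_114695747 and D_114714725 alike made up a further 5.31%, 10.2% and 7.84%.

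D_114705399, the sixth D from the JH side, was the most frequent D at both sites. Its share of D matches was 26.7% ± 8.02 at the near site, 23.1% ± 4.31 at the far site and 15.6% ± 0.878 in V(D)J joins (SD, n = 7 each). The excess was 11.1 percentage points at the near site (exact sign-flip p = 0.0313, adjusted p = 0.0664) and 7.59 points at the far site, positive in 7 of 7 libraries there (exact p = 0.0156, adjusted p = 0.0409). With duplicate-marked lines left out these calls changed places, with 12.9 points at the near site (adjusted p = 0.0379 by the same exact test) and 8.79 at the far site (adjusted p = 0.0625). Distinct junctions gave 10.2 (exact adjusted p = 0.0379) and 8.24 points (exact adjusted p = 0.0559). In VH81X-CBEscr/scr replicate 1 this D made up 28 of the 31 JH1 lines with a D match (90.3%), of 57 JH1 lines in all. The identical pair took 20.7% ± 3.71 at the near site, 14.9% ± 4.29 at the far site and 13.9% ± 0.784 in V(D)J joins (SD, n = 7 each). Its excess was 6.80 points at the near site (exact p = 0.0313, adjusted p = 0.0664) and 0.954 at the far site (exact p = 0.656, adjusted p = 0.769). The near-site excess passed the threshold without duplicate-marked lines (5.91 points, exact adjusted p = 0.0379) and over distinct junctions (6.28 points, exact adjusted p = 0.0379).

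DQ52, the D nearest to JH, made up 2.38% ± 1.91 of near-site and 1.62% ± 2.35 of far-site D matches, against 2.16% ± 0.342 in V(D)J joins (SD, n = 7 each). The differences were 0.216 points (exact p = 0.734, adjusted p = 0.823) and -0.535 points (exact p = 0.578, adjusted p = 0.702). DQ52 has 11 coding bases, so a run of 8 leaves little room for trimming. D_114727777 also differed by less than the spread, by 0.997 points at the near site (exact p = 0.422, adjusted p = 0.574) and 0.643 at the far site (exact p = 0.562, adjusted p = 0.702).

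**Figure D5:**
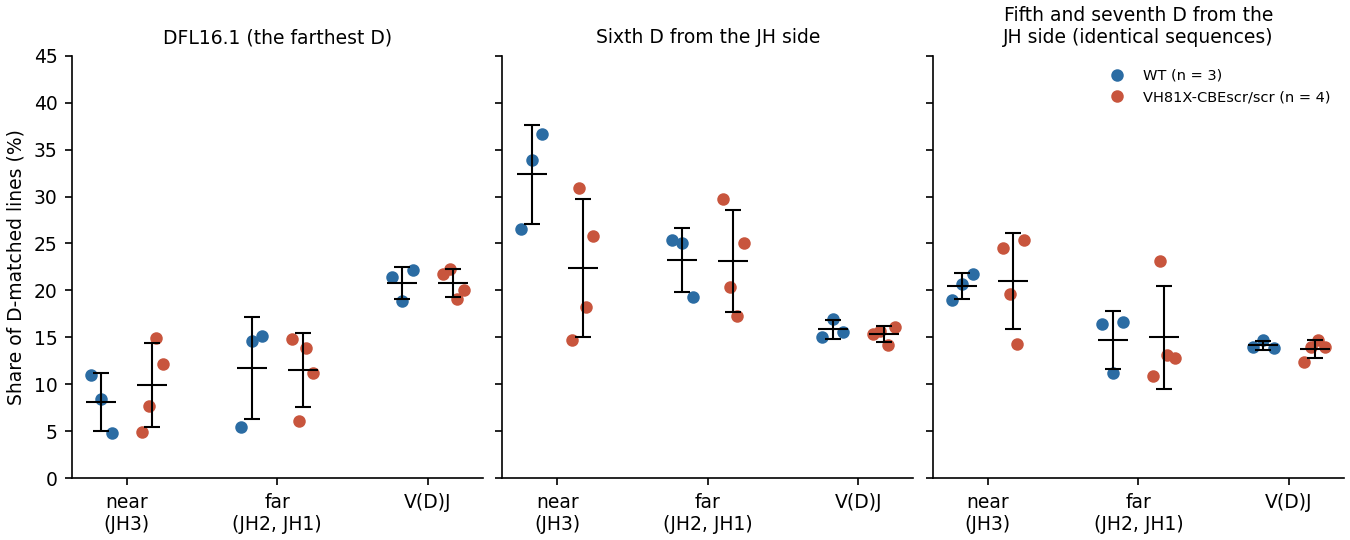
Share of D-matched lines (%, vertical axis) that hold DFL16.1, D_114705399 (the sixth D from the JH side) and the identical pair, at the near site, the far site and in V(D)J joins; each point is a library, and black lines are the mean and SD of each genotype. Every DFL16.1 value of both JH sites lies below every V(D)J value, whose lowest is 18.9%.

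The JH4 end itself lost a few bases in most of these joins. The median loss at the near site was 5, 4 and 4 bases in WT and 5, 4, 5 and 5 in the mutant. At the far site it was 4, 4 and 4 in WT and 4, 5, 5 and 5 in the mutant. DJ and V(D)J joins lost a median of 4 bases in each of the 7 libraries. Differences from DJ joins were 0.571 bases at the near site (exact sign-flip p = 0.125, adjusted p = 0.224) and 0.429 at the far site (exact p = 0.25, adjusted p = 0.364), and 0.143 between the sites (exact p = 1, adjusted p = 1). Without duplicate-marked lines the differences from DJ joins turned to -0.857 bases at the near site (exact p = 0.125, adjusted p = 0.211) and -1.14 at the far site (exact p = 0.0313, adjusted p = 0.0625), where DJ joins lost a median of 6 bases. With means in place of medians the far site differed by -0.955 bases (exact p = 0.234, adjusted p = 0.332). The mean loss at the near site was 5.43 ± 0.740 bases, against 3.38 ± 1.64 in DJ joins (SD, n = 7 each). The sign changed with the setting at each site, so no direction can be read. JH4 was untrimmed in 11.1% ± 3.39 of near-site and 11.2% ± 2.56 of far-site lines, against 12.8% ± 0.274 of DJ and 12.5% ± 0.636 of V(D)J lines (SD, n = 7 each). Bases past the JH4 coding end were retained in only 16 near-site and 19 far-site lines.

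Many lines were marked as duplicates. Lines marked as duplicates made up 63.0% ± 10.5 of the near site and 62.0% ± 7.06 of the far site, against 62.6% ± 6.43 of V(D)J and 86.9% ± 2.04 of DJ lines (SD, n = 7 each). The sites differed from V(D)J joins by 0.452 points (exact sign-flip p = 0.906, adjusted p = 0.934) and -0.536 points (exact p = 0.781, adjusted p = 0.830). Libraries held 31986 to 46915 lines, of which 71.8% to 84.8% were marked as duplicates. The mark also fell on lines that differ in position, insert or bait end. WT replicate 1 held 22531 distinct junctions in 40613 lines, though 71.8% of its lines were marked. Leaving out marked lines therefore also drops distinct junctions. WT replicate 2 had the fewest distinct junctions of these sites, 143 against 251 to 415 in the other libraries.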

How the data were processed

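Each deposited file lists 1 junction per line, with positions, strand, alignment and read. Per the submitters' processing notes, the authors aligned reads with Bowtie2 to mm9, with no version stated. Per the file headers, lines marked as duplicates were kept. Inserted bases are the read bases between bait and prey. Lines were counted here, since no column of the files used holds counts.

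JH and D reference bases came from matched bases of the reads, since no genome was used. A D match is a run of at least 8 exact bases. Two-sided exact permutation tests compared genotypes on log2((lines + 0.5) / (all lines + 1)), and two-sided exact sign-flip tests compared kinds of join within libraries. Benjamini-Hochberg adjustment covered 34 tests, of which 19 were added after values were seen. Every call of the main setting had the smallest possible sign-flip p of 0.0156, adjusted to 0.0409. Tests at that p include the insert length and D match differences from DJ joins, which follow from how DJ lines are defined. Without those tests the adjusted p of the other calls would be higher, and none of the other calls would pass the threshold. The other calls of the main setting therefore depend on which tests are included in the adjustment. A self-test of the D matcher on simulated inserts preceded the analysis. Reads carry no molecular identifier, so repeated lines may stem from 1 molecule. The members, D segments and comparisons were chosen with earlier results of these data known. Named D segments were those with an added test, besides the following. For D_114719358 and D_114695747 pooled shares alone are given, and D_114690286 and D_114714725 are named only for shared matches. Python 3.11.15, pandas 2.3.3 and SciPy 1.17.1 were used.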

Additional observations from a re-analysis of the deposited data

Results flagged for a closer look

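In 3 sets of values of the 4 mutant libraries, 1 library stood apart from the rest. All 3 are medians of whole bases in which the other libraries were tied, so a difference of 1 base is enough to set a library apart, and the usual rate of chance does not apply. VH81X-CBEscr/scr replicate 4 had a near-site median insert of 16 bases, against 15 in the other 3 mutant libraries. The near-site median JH4 trimming of VH81X-CBEscr/scr replicate 2 was 4 bases, against 5 in the others. The far-site median JH4 trimming of VH81X-CBEscr/scr replicate 1 was 4 bases, against 5 in the others.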

How the results depend on the processing

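In none of the alternatives run did a called difference change sign. With lines marked as duplicates left out, the difference in insert length from V(D)J joins was -1.43 bases at the near site (exact adjusted p = 0.0625) and -1.5 at the far site (0.0379). Over distinct junctions these were -1.21 (0.0559) and -1.79 (0.0379), and the near-site difference in D match share from V(D)J joins was -4.72 points (0.0559). With mean inserts the far site differed by -2.01 bases (0.0379). With D runs of at least 10 bases, the D match differences from V(D)J joins were -4.46 points at the near site (0.133) and -8.80 at the far site (0.0708). The cause of these changes was not tested.

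Leaving out 1 library at a time leaves 6, whose smallest sign-flip p of 0.0313 does not pass after adjustment, so such fits give ranges only. Insert lengths exceeded those of DJ joins by 12.5 to 12.7 bases (near) and 12 to 12.5 (far), and the near site differed from V(D)J joins by -1.5 to -1.33. D match shares differed from DJ joins by 59.7 to 61.4 points (near) and 55.7 to 57.2 (far), and from V(D)J joins by -7.15 to -5.40 (near) and -10.9 to -9.62 (far).

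With the replicate block, which paired replicates 1 to 3 by number, the log2 share difference of mutant over WT was 0.19 at the near site (exact p = 0.5) and 0.40 at the far site (exact p = 0.25). Deviations of same-numbered libraries over 15 D and JH shares correlated at -0.62, -0.14 and 0.50. Those of unlike-numbered libraries ranged from -0.63 to 0.65. With so few libraries these values cannot decide whether the numbers pair them. JH1 rests on 24 to 76 lines a library, which limits what its values can show.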
